A study of Mus musculus with 12 samples.

Results

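9 RNA-binding protein genes were followed through cultured mouse hippocampal neurons under proteasome inhibition. They were Tardbp, Ewsr1, Taf15, Matr3, Tia1, Atxn2, G3bp1, Fmr1 and Stau2, a list of genes linked to amyotrophic lateral sclerosis (ALS), to stress granules or to the transport of mRNA in neurons. The Entrez gene numbers of the count files were matched to mouse symbols, which found all 9 among the 27179 genes listed. Primary neurons from the hippocampi of newborn C57BL/6 mice (per the labels; the study's methods also name FVB mice) had been grown for 17 or 18 days on Transwell membranes, porous inserts that keep cell bodies on top while projections grow through to the underside. They received either the proteasome inhibitor MG132 at 10 uM for 7 h or the solvent DMSO (Ctrl), and polyadenylated RNA was sequenced separately from the somas and from the neurites. This gave 4 groups of 3 libraries, namely Ctrl somas, MG132 somas, Ctrl neurites and MG132 neurites, with no other treatment and no genetic change in any group. The neurites are projections of all kinds, since the membrane does not separate axons from dendrites. Their libraries also held RNAs of glia and nuclear RNAs, as given below.

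RNA-binding proteins with flexible, low-complexity stretches gather with mRNA into granules that have no membrane. Stress granules form in the cytoplasm when translation initiation is blocked, and they hold stalled mRNAs until the stress ends. Neurons also pack mRNAs into transport granules that motor proteins carry along microtubules into dendrites, where the mRNAs are translated locally. Several proteins of both kinds of granule form aggregates, or carry mutations, in ALS and frontotemporal dementia. Proteasome inhibition lets misfolded proteins accumulate and is a common way to stress such cells.

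Tardbp, Ewsr1, Taf15 and Matr3 encode proteins that are mainly nuclear in resting cells. The Tardbp product is TDP-43, a regulator of splicing and mRNA stability that leaves the nucleus and aggregates in most ALS. Ewsr1 and Taf15 encode related proteins of transcription and RNA processing, and Matr3 encodes matrin 3 of the inner nuclear matrix. Tia1 encodes a translational silencer that helps to build stress granules, G3bp1 their central scaffold, and Atxn2 ataxin-2, which binds poly(A)-binding protein and modifies the risk of ALS. Fmr1 encodes FMRP, the repressor of dendritic translation that is lost in fragile X syndrome, and Stau2 encodes Staufen 2, a double-stranded RNA-binding protein of dendritic transport granules.

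On the mouse genome build mm10 (GRCm38), positions are from RefSeq, and strands and lengths from the basic set of GENCODE M21 transcripts. Tardbp (Entrez gene 230908) lies on the minus strand of chromosome 4 from 148612382 to 148627084, and its range overlaps that of a counted neighbour, Masp2. Overlaps were sought between whole gene ranges, on either strand, and not between exons. Chromosome 11 carries 3 members. Ewsr1 (14030) runs from 5069687 to 5099107 on the minus strand and overlaps Rhbdd3, Taf15 (70439) runs from 83473073 to 83506743 on the plus strand, and G3bp1 (27041) runs from 55469657 to 55500888 on the plus strand and overlaps the gene model Gm12238. Matr3 (17184) spans 35562158 to 35592045 of chromosome 18, Tia1 (21841) spans 86404203 to 86433405 of chromosome 6, and Atxn2 (20239) spans 121711609 to 121814950 of chromosome 5, all on the plus strand. Fmr1 (14265) lies on the plus strand of chromosome X from 68678536 to 68717963, and Stau2 (29819) on the minus strand of chromosome 1 from 16228803 to 16520332. Each count covers the gene as a whole. Of the 75-base windows along the longest transcript of the full GENCODE set, 26.9% in Matr3, 15.4% in Ewsr1, 6.34% in Tia1 and 4.59% in G3bp1 also occur in transcripts of other genes, so the counts of these members are less certain. In the other 5 members the share was at most 0.311%.

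The libraries held between 4247610 and 22166347 counts. Levels are given as CPM, read counts scaled to a common library size with factors from the trimmed mean of M values (TMM). The labels do not say that the 3 libraries of a group came from separate cultures, so the p-values below measure the spread between these libraries, which may be technical. Hspa1a, the inducible HSP70 gene used here to check the treatment labels, stood between 0.441 and 2.22 CPM in the 6 Ctrl libraries and between 287 and 785 CPM in the 6 MG132 libraries. All 8 neuron markers were detected in every library, at a summed 803 to 1898 CPM. Markers of glia were also present. The 7 astrocyte markers summed to between 4678 and 5821 CPM in the somas of Ctrl cultures, 2456 and 3227 CPM in those of MG132 cultures, 20477 and 25640 CPM in Ctrl neurites and 9543 and 19642 CPM in MG132 neurites. The 6 microglia markers summed to between 505 and 1001 CPM over the Ctrl libraries and between 76.7 and 217 CPM over the MG132 libraries, and 3 of them in somas and 5 in neurites fell with MG132. The 6 oligodendrocyte markers ranged from 514 to 6612 CPM in somas and from 2906 to 22239 CPM in neurites. Single genes made up most of these sums in Ctrl neurites. Gfap alone held 1562 to 2553 CPM in Ctrl somas and 15606 to 21600 CPM in Ctrl neurites. Mbp held 497 to 2846 CPM and 3714 to 18913 CPM there. The median log2 ratio of neurites to somas in Ctrl was 0.08 over the astrocyte markers and 0.02 over the oligodendrocyte markers. In MG132 cultures it was 0.77 and -0.05. All 3 inhibitory neuron markers had counts in every library, at a summed 25.6 to 212 CPM, while the 3 endothelial markers together stayed at or under 1.77 CPM. The part that these other cells had in the results below was not tested. In bulk libraries of this kind, fewer cells of a type and less RNA per cell cannot be told apart.

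**Figure D1:**
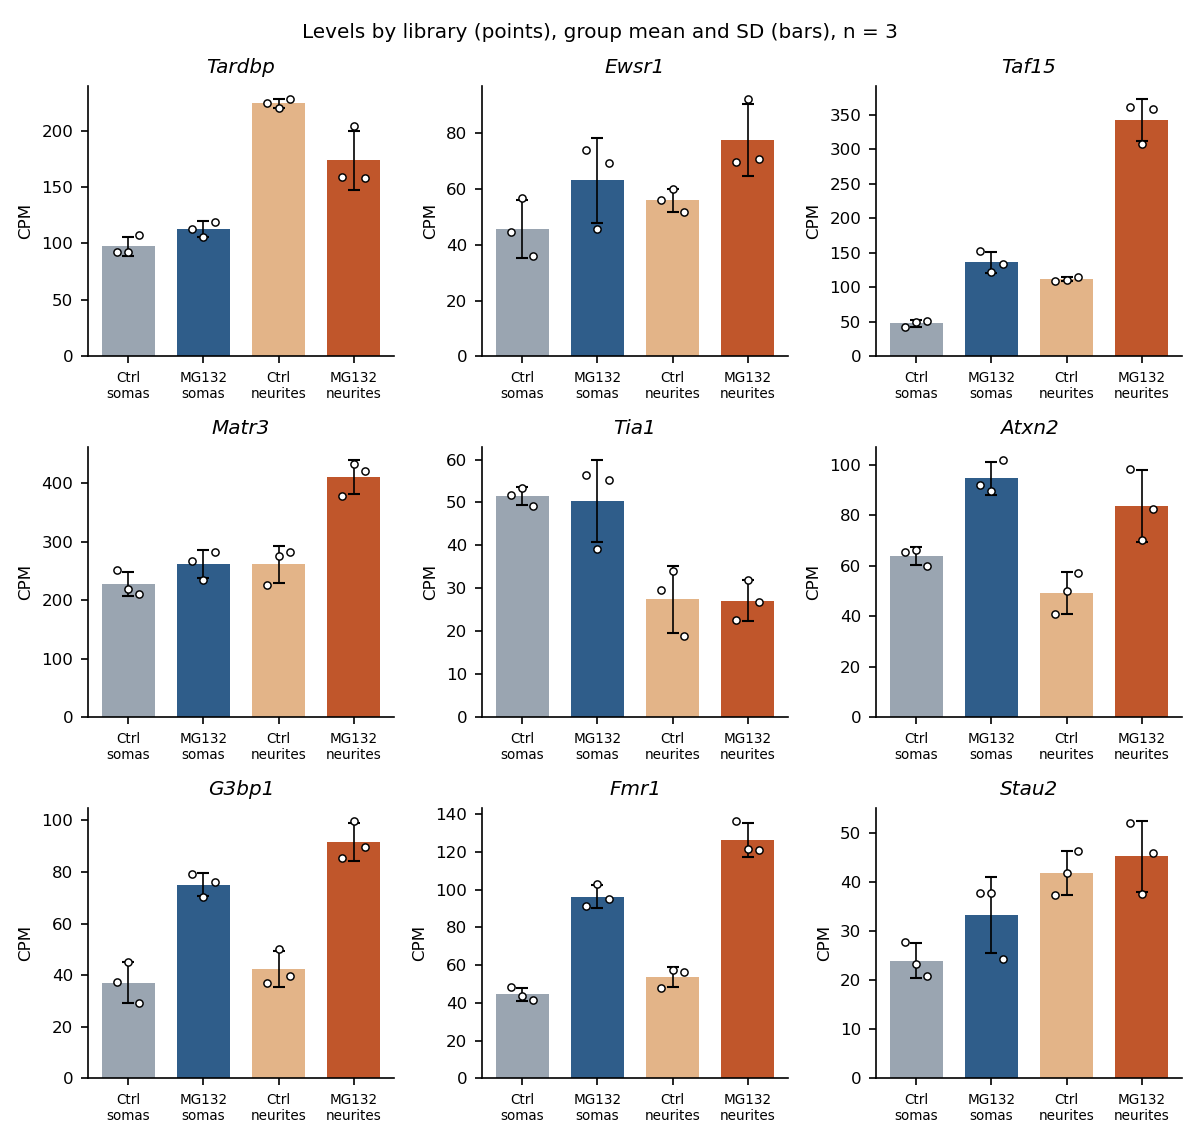
TMM-scaled CPM of the 9 genes in each of the 4 groups, with bars at the group mean, error bars of 1 SD and a point for each of the 3 libraries. Taf15, G3bp1 and Fmr1 stand higher in MG132 than in Ctrl in both compartments, Tardbp stands above 220 CPM in the 3 Ctrl neurites libraries alone, and Tia1 is lower in neurites than in somas with and without MG132.

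The first question was what proteasome inhibition does to these mRNAs in the cell bodies. In somas 4 of the 9 members rose with MG132 (Taf15, Fmr1, G3bp1 and Atxn2) and none fell, while 15.5% of all 14185 genes tested rose and 11.9% fell. A member was counted as changed when the adjusted p of edgeR's quasi-likelihood test was under 0.05, over all genes tested. In neurites 5 of 9 rose, the same 4 genes and Matr3, and none fell, against 14.7% and 12.3% of all genes. The median log2 fold change of the 9 members was 0.47 in somas and 0.65 in neurites, beside a median over all genes tested of -0.07 and -0.16. The CPM ranges of the Ctrl and MG132 libraries did not overlap for 4 members in somas and 7 in neurites, beside 45.9% and 40.9% of all genes.

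Taf15 had the largest change of the 9. Its 3 Ctrl somas libraries stood at 42.5, 49.2 and 51.1 CPM and its MG132 somas libraries at 153, 122 and 134 CPM. In neurites the Ctrl libraries held 109, 110 and 115 CPM and the MG132 libraries 362, 307.7 and 359 CPM. No Ctrl library reached any MG132 library of the same compartment. The change was 2.86-fold in somas (log2 1.52, SE 0.16, adjusted p = 1.54e-05) and 3.07-fold in neurites (log2 1.62, SE 0.16, adjusted p = 5.89e-06). Leaving out any of the 12 libraries changed neither call.

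Ewsr1, the relative of Taf15, did not pass the test in either compartment. It stood at 44.5, 56.7 and 36.0 CPM in the Ctrl somas and at 74.1, 45.8 and 69.3 CPM in MG132 somas, where the second MG132 library lies within the Ctrl range. In neurites it stood at 56.1, 60.1 and 51.8 CPM in Ctrl and 69.8, 92.3 and 70.7 CPM in MG132, with no overlap. The log2 fold changes were 0.47 in both compartments (SE 0.22, adjusted p = 0.124 in somas and 0.124 in neurites). Without the second MG132 somas library the value in somas was 0.66 (adjusted p = 0.0420), and without a filter on low counts that in neurites was 0.62 (adjusted p = 0.0454), so that each was then called higher.

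Tardbp moved little with MG132. It stood at 92.8, 92.5 and 107 CPM in the Ctrl somas and 113, 106 and 119 CPM in MG132 somas, ranges that overlap (log2 0.21, SE 0.15, adjusted p = 0.346). In neurites the Ctrl libraries held 224, 221 and 228 CPM, and the MG132 libraries 159, 204 and 158 CPM, all of them below the Ctrl libraries. That difference, a log2 of -0.37 (SE 0.15), had an adjusted p of 0.0918 and so was not called. Its call depended on the second MG132 neurites library, the deepest of the series, without which the value was -0.50 (adjusted p = 0.0485). DESeq2 called it lower as well, at a log2 of -0.39 (adjusted p = 0.0313).

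Matr3 was the most abundant member by CPM in Ctrl somas, at 251, 220 and 211 CPM, and it stood at 268, 235 and 282 CPM in MG132 somas. These ranges overlap, and the log2 fold change of 0.20 (SE 0.16) was not called (adjusted p = 0.372). In neurites all 3 MG132 libraries, at 378, 433 and 422 CPM, were above the Ctrl libraries at 226, 275 and 283 CPM. Matr3 mRNA there was 1.57-fold higher (log2 0.65, SE 0.16, adjusted p = 0.00689). With total counts in place of TMM scaling this call was lost (log2 0.49, adjusted p = 0.300).

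The 3 stress granule proteins did not move alike. G3bp1, the scaffold, stood at 37.2, 45.1 and 29.0 CPM in the Ctrl somas and at 79.2, 70.2 and 76.0 CPM in MG132 somas. In neurites it stood at 36.8, 50.2 and 39.9 CPM in Ctrl and at 85.5, 99.8 and 89.8 CPM in MG132. The groups were apart in both compartments, by 2.03-fold in somas (log2 1.02, SE 0.19, adjusted p = 0.0012) and 2.16-fold in neurites (log2 1.11, SE 0.19, adjusted p = 0.000594).

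Atxn2 rose less. Its levels were 65.5, 66.3 and 59.8 CPM in Ctrl somas against 92.1, 89.6 and 102 CPM in MG132 somas (log2 0.57, SE 0.17, adjusted p = 0.0255). In neurites they were 40.7, 50.0 and 57.0 CPM against 98.3, 70.1 and 82.4 CPM (log2 0.76, SE 0.18, adjusted p = 0.00541). No Ctrl library reached an MG132 library in either compartment. The call in somas was lost without any of the 3 Ctrl somas libraries or without the first or the third MG132 somas library, where the log2 value stayed between 0.52 and 0.59 (adjusted p between 0.0546 and 0.0926). With total counts in place of TMM it was lost in somas (0.54, adjusted p = 0.247) and in neurites (0.56, adjusted p = 0.225).

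Tia1 gave no call with MG132. It stood at 51.8, 53.5 and 49.2 CPM in the Ctrl somas and 56.5, 39.3 and 55.2 CPM in MG132 somas, and at 29.6, 34.0 and 18.8 CPM in Ctrl neurites and 22.6, 32.1 and 26.8 CPM in MG132 neurites. The Ctrl and MG132 libraries overlapped in each compartment. The log2 fold changes were -0.03 (SE 0.23, adjusted p = 0.942) in somas and -0.01 (SE 0.24, adjusted p = 0.979) in neurites.

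Of the 2 transport proteins, Fmr1 rose and Stau2 gave no call. Fmr1 stood at 48.1, 43.5 and 41.7 CPM in the Ctrl somas and at 91.1, 103 and 95.2 CPM in MG132 somas. Its neurites held 47.6, 57.1 and 56.3 CPM in Ctrl and 136, 121 and 121 CPM in MG132. All MG132 libraries were above all Ctrl libraries, also across compartments. The fold was 2.17 in somas (log2 1.11, SE 0.15, adjusted p = 0.000124) and 2.34 in neurites (log2 1.23, SE 0.15, adjusted p = 4.81e-05).

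Stau2 was the least abundant member in Ctrl somas, at 27.8, 23.2 and 20.7 CPM, with 37.6, 37.7 and 24.3 CPM in MG132 somas. In neurites it stood at 37.3, 41.8 and 46.2 CPM in Ctrl and at 52.0, 37.6 and 45.8 CPM in MG132. The groups overlapped in both compartments. The log2 fold changes were 0.47 (SE 0.22, adjusted p = 0.134) in somas and 0.10 (SE 0.22, adjusted p = 0.765) in neurites, the latter turning to -0.09 with total counts.

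**Figure D2:**
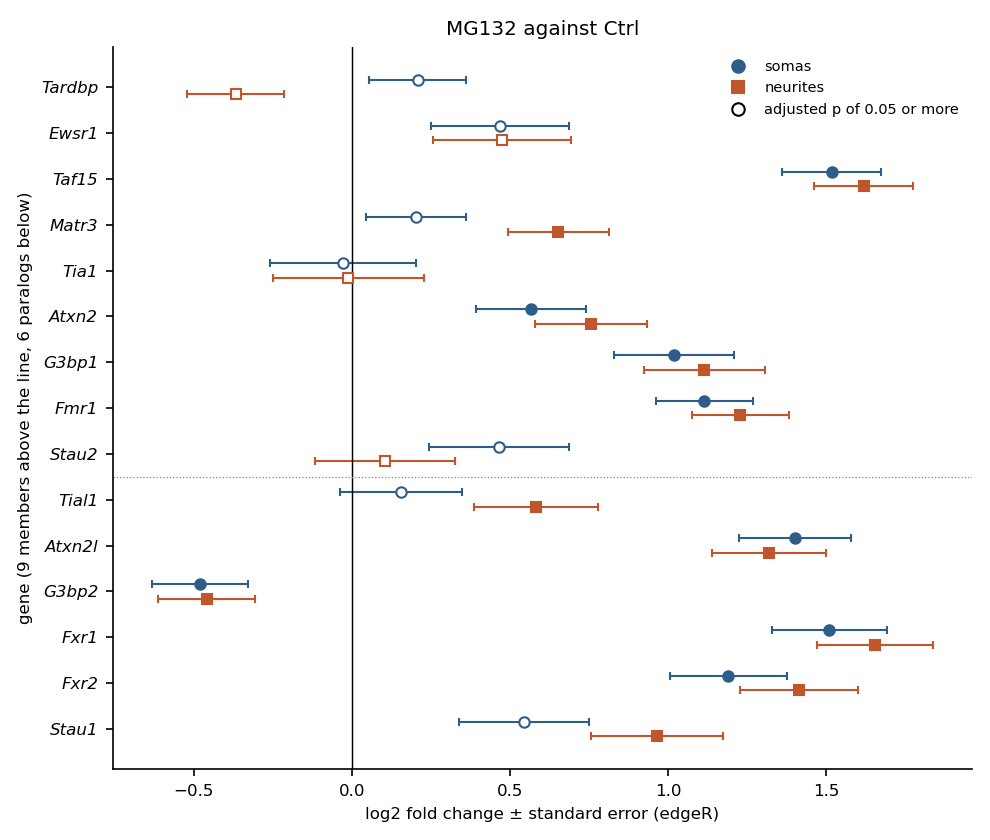
Log2 fold change of MG132 against Ctrl with its standard error, in somas (circles) and neurites (squares), for the 9 genes above the dotted line and 6 paralogs below it, with open symbols for an adjusted p of 0.05 or more. Taf15, Fmr1 and G3bp1 lie beyond 1.0 in both compartments, while Tia1 lies at -0.03 and -0.01 and the G3bp1 paralog G3bp2 at -0.48 and -0.46. With total counts in place of TMM the neurites value of Stau2 turns from 0.10 to -0.09.

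The 3 members that rose more than 2-fold in both compartments were set beside Tia1, which gave no call, by the 250 bases before their annotated starts. These starts are those of the sequence source and differ from the gene ranges given above. Each window printed here ends past the first base of its gene range. Distances below are counted from the starts of the sequence source. Sequences are from RefSeq on GRCm38.p6 and are written 5′ to 3′ on the strand of the gene. Windows of 7 members were used. Stau2 had no entry in the sequence source, and Matr3, called higher with MG132 in neurites, was left out, so its window was not searched. Taf15 is at chr11:83472858-83473107 (plus strand), G3bp1 at chr11:55469502-55469751 (plus), Fmr1 at chrX:68678291-68678540 (plus) and Tia1 at chr6:86403969-86404218 (plus). Capitals mark matches to the motifs named in the next paragraph.
Taf15: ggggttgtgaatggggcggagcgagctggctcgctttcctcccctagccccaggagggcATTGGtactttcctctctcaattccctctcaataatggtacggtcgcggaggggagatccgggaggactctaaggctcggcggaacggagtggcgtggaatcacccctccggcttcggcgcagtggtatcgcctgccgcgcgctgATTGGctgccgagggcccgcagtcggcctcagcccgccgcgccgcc
G3bp1: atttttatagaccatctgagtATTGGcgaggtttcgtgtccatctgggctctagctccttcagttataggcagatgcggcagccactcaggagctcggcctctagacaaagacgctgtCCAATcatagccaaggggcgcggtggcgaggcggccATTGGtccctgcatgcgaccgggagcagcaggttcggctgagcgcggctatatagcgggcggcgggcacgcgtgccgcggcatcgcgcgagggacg
Fmr1: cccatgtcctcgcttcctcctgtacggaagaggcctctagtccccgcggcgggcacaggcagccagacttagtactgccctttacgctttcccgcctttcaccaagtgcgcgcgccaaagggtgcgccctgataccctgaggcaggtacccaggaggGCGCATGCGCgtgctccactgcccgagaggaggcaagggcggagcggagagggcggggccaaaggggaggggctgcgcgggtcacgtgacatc
Tia1: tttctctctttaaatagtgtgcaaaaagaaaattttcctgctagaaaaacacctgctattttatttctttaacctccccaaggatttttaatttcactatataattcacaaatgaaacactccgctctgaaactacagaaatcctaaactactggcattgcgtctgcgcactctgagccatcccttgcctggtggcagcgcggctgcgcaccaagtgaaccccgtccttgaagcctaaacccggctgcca

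7 motifs were searched on both strands. They were the paired heat shock units GAANNTTC and TTCNNGAA, the antioxidant response element TGACNNNGC, the CCAAT box CCAAT, the cyclic AMP response element TGACGTCA, the core GCATGCGC of the NRF1 motif and the ETS core CCGGAAGT. Neither form of the paired heat shock unit was found in any of the 7 members' windows, and they occur in 4.88% and 5.81% of the 11007 windows of tested genes. G3bp1 held 3 CCAAT boxes, beginning 229, 132 and 96 bases before the start, and Taf15 held 2, at 191 and 46 bases, while 36.3% of all windows held at least 1. Fmr1 held the NRF1 core on both strands at 93 and 91 bases before the start, matches that overlap in a palindrome, beside 4.35% of all windows. Atxn2, which rose less, held the ETS core at 92 bases, beside 5.66%. Tia1, Tardbp and Ewsr1 held none of the 7. The Taf15, G3bp1 and Fmr1 windows had 66.8%, 62% and 67.2% G and C with 25, 25 and 21 CpG dinucleotides, and the Tia1 window had 44% and 8, beside medians of 60% and 16 over all windows. Tia1 stood apart here, since Tardbp and Ewsr1, not called with MG132 either, had 63.6% and 65.6% with 24 and 31 CpG. The Atxn2 window had 73.2% and 29. These matches describe the letters in the window and do not show that a factor binds.

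Each granule protein has close relatives that can share its role, so the members were compared with 6 paralogs. The clearest contrast was within the G3BP pair. G3bp2 stood at 148, 153 and 132 CPM in the Ctrl somas and 116, 91.2 and 103 CPM in MG132 somas, and at 125, 146 and 124 CPM in Ctrl neurites and 95.1, 95.2 and 97.5 CPM in MG132 neurites. Thus it fell where G3bp1 rose, by 0.48 on the log2 scale in somas (SE 0.15, adjusted p = 0.0294) and by 0.46 in neurites (SE 0.15, adjusted p = 0.0373). With total counts the values stayed negative but were not called (-0.51, adjusted p = 0.282, and -0.62, adjusted p = 0.173), and the same held without a filter on low counts (-0.46, adjusted p = 0.098, and -0.32, adjusted p = 0.307). The call in neurites was kept without only the second MG132 somas library (adjusted p between 0.0514 and 0.216 without each of the other 11), and the call in somas was lost without the first or second Ctrl or the second or the third MG132 somas library (log2 between -0.47 and -0.39, adjusted p between 0.0881 and 0.114). The log2 ratio of G3bp1 to G3bp2 counts within a library, which needs no scaling between libraries, was -1.99, -1.76 and -2.18 in Ctrl somas and -0.55, -0.38 and -0.43 in MG132 somas. In neurites it was -1.75, -1.54 and -1.64 in Ctrl and -0.15, 0.07 and -0.12 in MG132. The ratio was thus 1.52 (somas) and 1.58 (neurites) higher with MG132 with no overlap. An exact permutation test, two-sided, gave p = 0.1, the smallest that 3 against 3 libraries can give, and 0.156 after adjustment over the 14 ratios tested.

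The fragile X relatives Fxr1 and Fxr2 rose together with Fmr1. Fxr1 stood at 59.7, 63.4 and 86.5 CPM in the Ctrl somas and 172, 206 and 219 CPM in MG132 somas, and went from 110, 117 and 134 CPM to 348, 365 and 423 CPM in neurites. Its log2 fold changes were 1.51 (SE 0.18, adjusted p = 4.79e-05) and 1.65 (SE 0.18, adjusted p = 1.86e-05). Fxr2 rose by a log2 of 1.19 (SE 0.18) in somas and 1.42 (SE 0.19) in neurites. The log2 ratio of Fmr1 to Fxr2 within a library moved by only -0.08 in somas and -0.18 in neurites, with overlapping groups (exact permutation p = 0.7 and 0.3). The ratio of Fmr1 to Fxr1 was lower with MG132 by 0.41 in somas, with overlap (exact permutation p = 0.3), and by 0.42 in neurites, without overlap (exact permutation p = 0.1).

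Atxn2l, the relative of ataxin-2, rose more than Atxn2. It stood between 56.4 and 77.2 CPM in the Ctrl somas and between 151 and 190 CPM in MG132 somas, and between 36.3 and 48.3 CPM in Ctrl neurites and 96.3 and 109 CPM in MG132 neurites. The log2 fold changes were 1.40 (SE 0.18) and 1.32 (SE 0.18), and the ratio of Atxn2 to Atxn2l was lower with MG132 by 0.84 in somas and by 0.56 in neurites, without overlap in either. Tial1, the relative of Tia1, rose in neurites (log2 0.58, SE 0.20, adjusted p = 0.0395), a call lost without the first Ctrl or the first or second MG132 neurites library (0.57 to 0.63, adjusted p between 0.0615 and 0.0936). It was also lost with total counts (0.43, adjusted p = 0.364) and with at least 10 counts in every library (0.47, adjusted p = 0.0733). In somas Tial1 was not called (0.16, adjusted p = 0.595). Stau1 rose in neurites (log2 0.96, SE 0.21, adjusted p = 0.00321), where Stau2 did not pass, a call lost with total counts (0.80, adjusted p = 0.0944), and the ratio of Stau2 to Stau1 there went from between -0.54 and -0.16 to between -1.52 and -0.72. Stau1 in somas had a log2 fold change of 0.54 (adjusted p = 0.0631). The ratio of Ewsr1 to Taf15 was lower with MG132 by 1.05 in somas and by 1.16 in neurites, again with no overlap. Over the 7 pairs and 2 compartments the groups of ratios were apart in 9 of the 14 tests, each at the smallest possible exact p of 0.1. After adjustment over the 14 permutation tests each of these was 0.156. The share over other gene pairs was not computed. For single genes the Ctrl and MG132 libraries did not overlap in 45.9% in somas and 40.9% in neurites. The 14 are not independent, since Fmr1 is in 2 pairs and each pair was tested in both compartments.

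**Figure D3:**
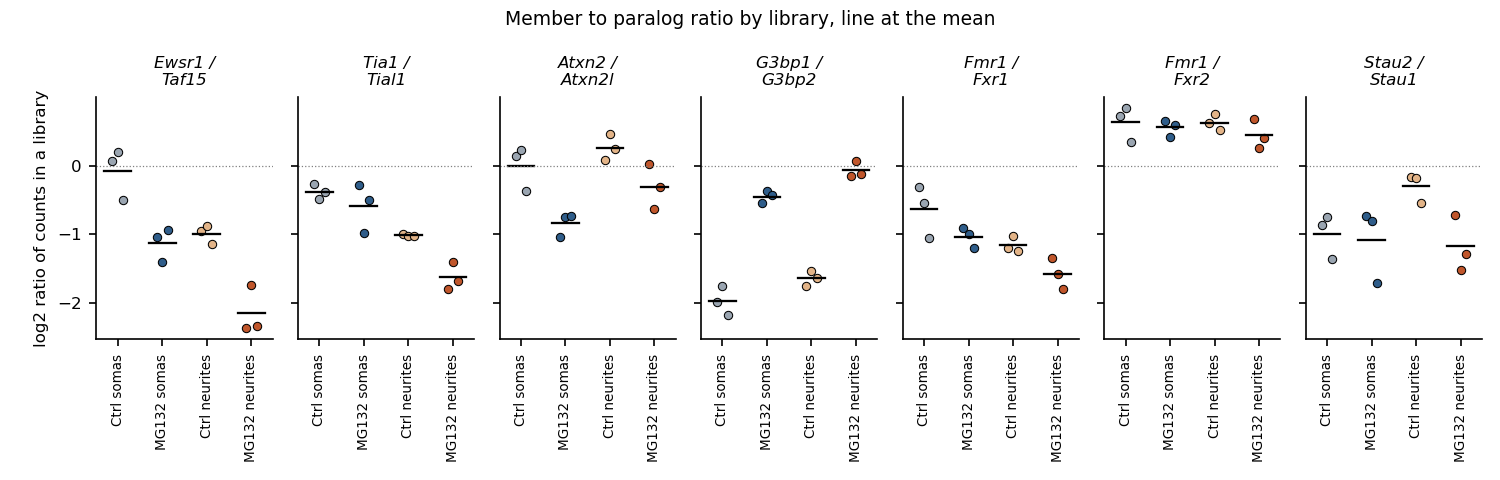
Log2 ratio of a member's counts to its paralog's counts within each library (1 added to each count), with a point per library and a line at the mean of 3. The G3bp1 to G3bp2 ratio is higher in all MG132 libraries (-0.55 to 0.07) than in all Ctrl libraries (-2.18 to -1.54), and the Ewsr1 to Taf15 ratio is lower with MG132 within each compartment.

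The next question was which of these mRNAs are relatively abundant in the neurites fraction, which also held RNAs of glia and nuclear RNAs. Between compartments the scaling matters. The median log2 ratio of neurites to somas over all genes was -0.04 in Ctrl and -0.08 in MG132 cultures with TMM, and -0.70 and -0.86 with total counts, so the ratios are best read relative to that median. The most abundant gene alone took between 12.4% and 25.0% of a somas library and between 17.0% and 33.4% of a neurites library, ranges that overlap. Its part in the scaling was not tested. In Ctrl cultures 3 members were higher in neurites than in somas (Taf15, Tardbp and Stau2) and 1 was lower (Tia1), while 10.2% of all genes tested were higher and 4.65% lower. In MG132 cultures 3 were higher (Taf15, Matr3 and Tardbp) and again Tia1 was lower, against 11.4% and 6.35% of all genes. With total counts none of these was called higher, and 2 members, Tia1 and Atxn2, were called lower in each treatment.

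Taf15 mRNA was 2.34-fold higher in Ctrl neurites than in Ctrl somas (log2 1.23, SE 0.16, adjusted p = 7.00e-05) and 2.52-fold higher in MG132 neurites than in MG132 somas (log2 1.33, SE 0.16, adjusted p = 3.83e-05). Relative to the median gene its log2 ratios were 1.27 and 1.41 with TMM and 1.27 and 1.37 with total counts. The per-library values given above show no overlap between compartments within a treatment.

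Tardbp was 2.30-fold higher in neurites in Ctrl (log2 1.2, SE 0.16, adjusted p = 8.31e-05) and 1.54-fold higher in MG132 (log2 0.62, SE 0.15, adjusted p = 0.0113). The call in MG132 was lost without the second MG132 neurites library (0.49, adjusted p = 0.0748). With total counts the ratio was 0.54 in Ctrl and turned to -0.13 in MG132, but relative to the median gene it was 1.24 and 0.73, close to the 1.24 and 0.71 of TMM. All 3 neurites libraries stood above all 3 somas libraries in each treatment on the TMM scale. Over the 9 members the compartments did not overlap for 5 in Ctrl and 6 in MG132, beside 33.7% and 36.8% of all genes.

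Stau2 was 1.75-fold higher in Ctrl neurites (log2 0.81, SE 0.22, adjusted p = 0.0235). It was not called in MG132 cultures (0.44, SE 0.22, adjusted p = 0.188), where the ratio turned to -0.38 with total counts. The Ctrl call was the least firm of these, since leaving out any Ctrl somas library, the second or the third Ctrl neurites library or the third MG132 neurites library ended it (log2 between 0.64 and 0.87, adjusted p between 0.0512 and 0.154). Matr3 was not called in Ctrl (0.20, SE 0.16, adjusted p = 0.457) and was higher in neurites in MG132 (0.65, SE 0.16, adjusted p = 0.0101), a ratio that turned to -0.46 and -0.14 with total counts and was 0.24 and 0.72 relative to the median gene.

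Tia1 was the only member called lower in neurites with TMM. It was 1.87-fold lower in Ctrl (log2 -0.90, SE 0.24, adjusted p = 0.0174) and 1.85-fold lower in MG132 (log2 -0.89, SE 0.24, adjusted p = 0.0168), and the direction was the same with total counts. The MG132 call was lost without the first or the third library of MG132 somas or of MG132 neurites (log2 between -0.83 and -0.73, adjusted p between 0.0592 and 0.101). Its raw count was 112 in the first and in the third Ctrl neurites library, the fewest of the members in each.

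The remaining 4 members were not called between compartments. Ewsr1 had log2 ratios of 0.29 and 0.30, G3bp1 of 0.19 and 0.29, and Fmr1 of 0.27 and 0.39 in Ctrl and MG132. These values turned negative with total counts, to between -0.49 and -0.38. Atxn2 stood lower in neurites, at -0.37 in Ctrl (adjusted p = 0.187) and -0.18 in MG132 (adjusted p = 0.522), and its relative Atxn2l was lower in both (-0.65, adjusted p = 0.0223, and -0.73, adjusted p = 0.009). The Atxn2l call in Ctrl was lost without the first or second Ctrl neurites or the third Ctrl somas library (-0.60 to -0.56, adjusted p between 0.0666 and 0.0911), and that in MG132 without the first MG132 somas library (-0.58, adjusted p = 0.0734). Fxr1, in contrast, was higher in neurites in Ctrl (0.78, adjusted p = 0.00847) and MG132 (0.93, adjusted p = 0.00232). Its Ctrl call was lost without the first or second Ctrl somas or the third Ctrl neurites library (0.62 to 0.64, adjusted p between 0.0503 and 0.0676). With total counts neither Fxr1 call was kept (0.14, adjusted p = 0.756, and 0.12, adjusted p = 0.765).

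The compartments also differed in other RNAs. The 5 nuclear RNAs used to check the separation summed to between 5741 and 6971 CPM in the Ctrl somas and 1803 and 3989 CPM in Ctrl neurites, and 4 of the 5 were lower in neurites in Ctrl and in MG132. Of the 7 astrocyte markers 3 were higher and 1 lower in Ctrl neurites, and 4 and 1 in MG132 neurites. Their part in the members' neurites values was not tested.

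**Figure D4:**
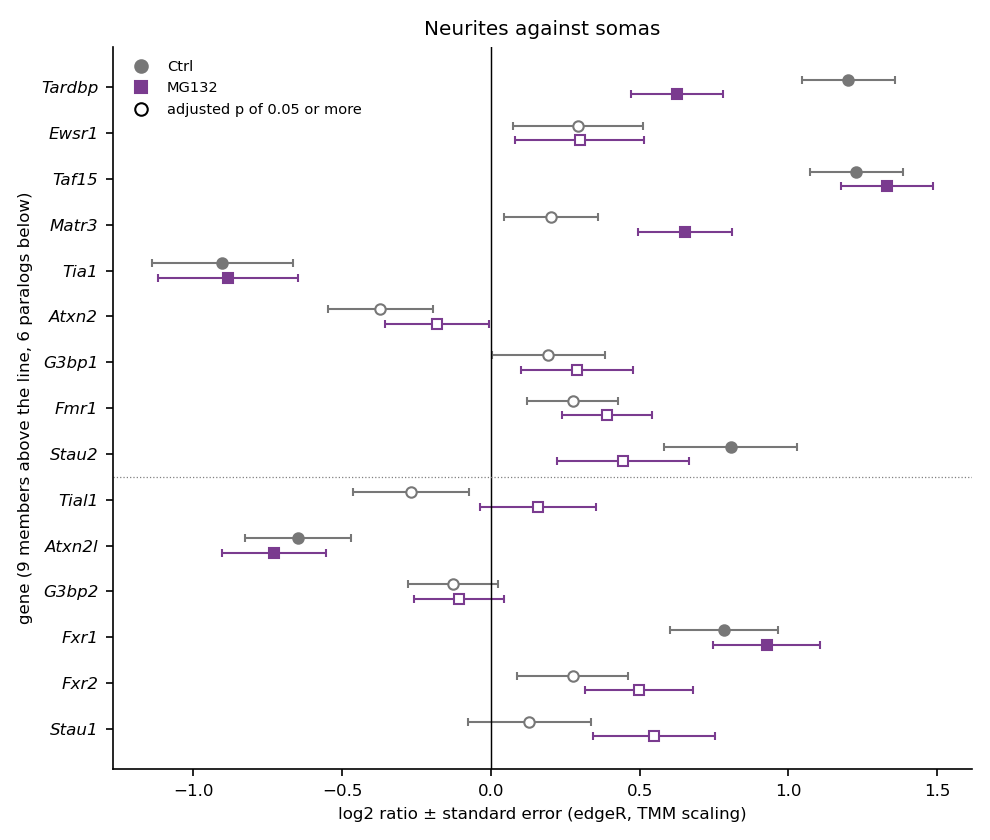
Log2 ratio of neurites to somas with its standard error, TMM-scaled, in Ctrl (circles) and MG132 cultures (squares), with open symbols for an adjusted p of 0.05 or more. Taf15 and Tardbp lie to the right and Tia1 to the left in both treatments; with total counts every ratio moves left and those of Tardbp and Stau2 in MG132 and of Matr3, Ewsr1, G3bp1 and Fmr1 in both treatments fall below 0. The 6 paralogs are below the dotted line.

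Whether MG132 acted differently on the members in the 2 compartments was tested with an interaction term, the MG132 response in neurites minus that in somas. No member was called, nor was any of the 14185 genes (0%) with edgeR, where 1000 genes passed an unadjusted threshold of 0.05 and no adjusted p was below 0.328. DESeq2 called 59 genes, none of them a member. Tardbp had the largest difference of the 9, at -0.58 (SE 0.22, unadjusted p = 0.0188, adjusted p = 0.592), with values between -0.71 and -0.40 when each library was left out in turn. Matr3 followed at 0.45 (SE 0.22, unadjusted p = 0.0625, adjusted p = 0.738) and Stau2 at -0.36 (SE 0.31, adjusted p = 0.893). For Taf15, G3bp1, Fmr1, Atxn2, Tia1 and Ewsr1 the estimates lay between 0.0049 and 0.19 with standard errors between 0.21 and 0.33, so differences of that order were not detectable here, and with total counts all but that of Atxn2 turned negative.

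To compare the genes with each other, CPM was divided by the exon length of each gene in kilobases, which gives CPM per kb. In Ctrl somas Matr3 came first at 35.0 ± 3.21 (SD, n = 3) and Taf15 second at 23.0 ± 2.17, each above the next gene in all 3 libraries. Atxn2 (14.3 ± 0.79), Tardbp (13.1 ± 1.14), Ewsr1 (11.8 ± 2.68) and Tia1 (11.5 ± 0.48) followed with neighbours whose ranges overlapped. Fmr1 (9.96 ± 0.75), G3bp1 (5.54 ± 1.2) and Stau2 (3.63 ± 0.54) came last, apart from each other. Taf15 took first place in the other 3 groups, at 65.9 ± 7.52 in MG132 somas, 53.9 ± 1.42 in Ctrl neurites and 166 ± 14.8 in MG132 neurites, with Matr3 second at 40.2 ± 3.66, 40.2 ± 4.78 and 63.2 ± 4.46 and no overlap between them.

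Behind these, the order changed between groups. Tardbp came next in Ctrl neurites at 30.0 ± 0.51, above Ewsr1 in every library. In MG132 neurites Fmr1 (28.3 ± 2.0), Tardbp (23.2 ± 3.51), Ewsr1 (20.0 ± 3.29) and Atxn2 (18.7 ± 3.17) overlapped with their neighbours. G3bp1 was at 11.2 ± 0.68 in MG132 somas, overlapping Tia1 at 11.2 ± 2.14, whereas in Ctrl somas it stood below Tia1 in all libraries. Stau2, at between 3.63 and 6.86 over the 4 groups, and Tia1 in neurites, at 6.13 ± 1.74 and 6.06 ± 1.06, were among the lowest, together with G3bp1 in Ctrl neurites at 6.31 ± 1.05. Using the longest transcript of the basic set in place of the exon length changed the values most for Ewsr1 and Stau2. Ewsr1 then came directly after Taf15 and Matr3 in both somas groups and in MG132 neurites (17.7 in Ctrl somas). Stau2 then stood at 6.12 in Ctrl somas. This check could not change Atxn2, whose only transcript in the basic set has 4472 bases. The longest Atxn2 transcript of the full GENCODE set has 6946 bases, and its place at that length was not computed.

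The same comparisons were made for 71 genes of RNA granules other than the members, of which 70 could be tested (Igf2bp1 had too few counts). The paralogs above are among them and are counted again here. Stau1 is in the transport list and the other paralogs are in the stress granule list. With MG132 32 rose and 3 fell in somas, and 27 rose and 7 fell in neurites, with medians of 0.56 and 0.52. Over all genes tested, 15.5% rose and 11.9% fell in somas, and 14.7% rose and 12.3% fell in neurites, with medians of -0.07 and -0.16. The same shares are the background for each list below. Of the 24 other stress granule genes, 15 rose and 2 fell in somas, and 14 rose and 2 fell in neurites. Larp4, which binds poly(A) tails, rose most in both compartments (log2 1.64, SE 0.20, adjusted p = 5.43e-05, and 1.94, SE 0.21, adjusted p = 1.35e-05). Larp1, a regulator of ribosomal protein mRNAs, rose by 1.53 in somas (SE 0.16, adjusted p = 1.61e-05) and by 1.52 in neurites (SE 0.16). The RNA helicase Ddx3x rose by 0.74 (SE 0.16) in somas and 1.71 (SE 0.16) in neurites, and Prrc2c by 0.95 (SE 0.18) and 1.7 (SE 0.18). The members of the list that fell were G3bp2 and Cirbp, a cold-inducible RNA-binding protein (-1.10, SE 0.35, adjusted p = 0.0296 in somas and -1.18, SE 0.36, adjusted p = 0.0231 in neurites).

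Of the 20 genes of decapping and decay, which act in processing bodies, 9 rose and 1 fell in somas and 5 rose and 2 fell in neurites. Edc4, the scaffold of the decapping complex, rose in both (1.35, SE 0.24, and 1.30, SE 0.25), as did Zfp36, which targets AU-rich mRNAs for decay (1.60, SE 0.42, and 1.42, SE 0.44). Dcp1a, a decapping activator, rose in somas (1.28, SE 0.25) and was not called in neurites (0.70, adjusted p = 0.0597). Eif4enif1, the eIF4E transporter, rose in both (0.71, SE 0.24, and 1.01, SE 0.25). Zfp36l2 fell in both (-1.54, SE 0.27, and -1.08, SE 0.27) and Tnrc6b, a silencing protein of the microRNA pathway, fell in neurites (-1.11, SE 0.21).

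Of the 26 tested genes of neuronal RNA transport, 8 rose and none fell in somas, and 8 rose and 3 fell in neurites. Cpeb4, a cytoplasmic polyadenylation factor, rose by 1.7 (SE 0.22) and 1.46 (SE 0.22), and Elavl1, which stabilises AU-rich mRNAs, by 1.27 (SE 0.20) and 1.2 (SE 0.20). Pura (-0.77, SE 0.23), Purb (-0.75, SE 0.19) and Nova2 (-1.37, SE 0.39) fell in neurites, the last with overlapping libraries. The total of 32 that rose in somas became 21 without the first Ctrl somas library. The 3 that fell there became 1 without that library or the second or the third MG132 somas library. The 7 that fell in neurites became 4 without any Ctrl somas library or without the second Ctrl neurites library, and 2 without the third MG132 neurites library. With total counts 13 rose in somas and 12 in neurites.

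Between compartments, 11 of the 70 were higher and 2 lower in Ctrl neurites, and 10 were higher and 9 lower in MG132 neurites, with medians of -0.12 and -0.16. Over all genes tested, 10.2% were higher and 4.65% lower in Ctrl neurites, and 11.4% and 6.35% in MG132 neurites, with medians of -0.04 and -0.08. Pabpc1, the main cytoplasmic poly(A)-binding protein, stood out in Ctrl (2.23, SE 0.24) and MG132 (1.75, SE 0.24), as did Ybx1 (2.01, SE 0.20, and 1.34, SE 0.20), which binds mRNA in translationally silent particles. Lsm14a, a processing body protein, was higher in neurites (1.34, SE 0.17, and 1.44, SE 0.17). So were Syncrip (1.01, SE 0.15, and 0.79, SE 0.15) and Zfr (0.88, SE 0.16, and 0.70, SE 0.16), while Pura was called in Ctrl (1.58, SE 0.24). Cpeb1 (-0.69, SE 0.20, and -0.82, SE 0.20) was lower in both treatments, and Nova2 (-1.39, SE 0.39), Pan2 (-1.21, SE 0.39), Dcp1a (-1.0, SE 0.25), Edc4 (-0.79, SE 0.23), Nufip2 (-0.78, SE 0.19) and Ythdf3 (-0.57, SE 0.17) were lower in MG132 neurites. With total counts the calls were 2 higher and 21 lower in Ctrl and 1 higher and 34 lower in MG132. The 2 lower calls in Ctrl became 0 without the first or the second Ctrl neurites library, 1 without the third Ctrl somas library and 5 without the third MG132 neurites library, and the 9 in MG132 became 4 or 5 without an MG132 somas library.

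**Figure D5:**
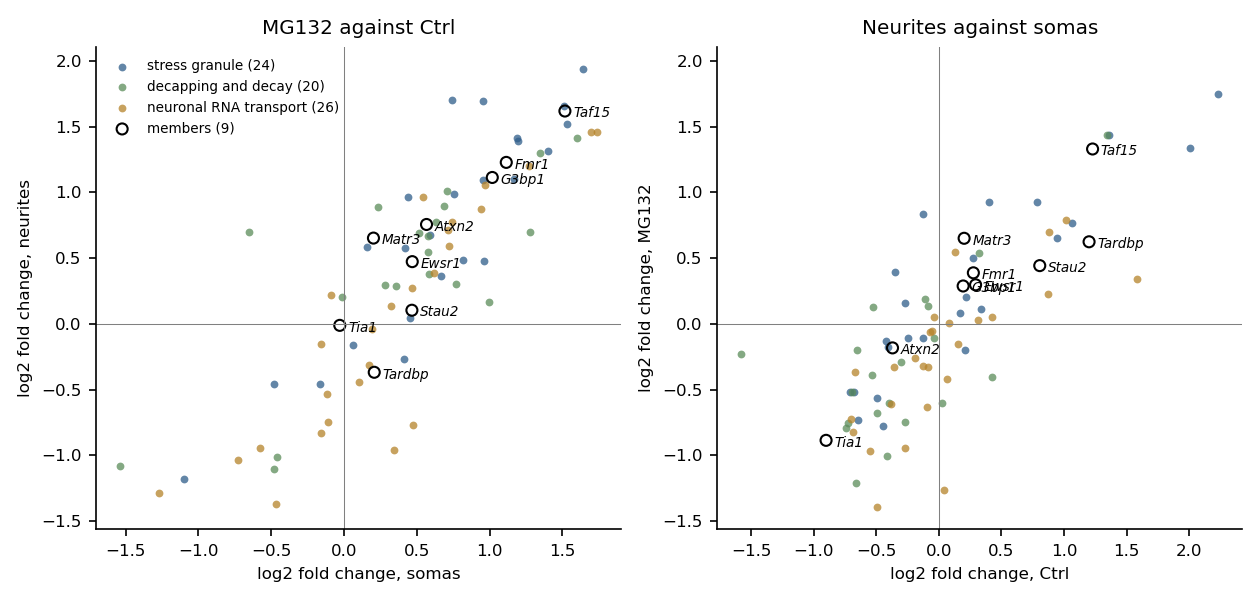
Log2 fold changes of the 9 genes (open circles, named) and of 70 other RNA granule genes in 3 lists (coloured points, the paralogs included), TMM-scaled. The left panel sets the MG132 response in somas against that in neurites, and the right panel sets the ratio of neurites to somas in Ctrl against that in MG132, where total counts move the median gene to -0.70 in Ctrl and -0.86 in MG132. The 2 axes of a panel share no libraries. Most points of the stress granule list lie to the upper right of the left panel, around Taf15, Fmr1, G3bp1 and Atxn2, and Tia1 lies near 0.

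For each member the genes with the most similar levels over the 12 libraries were sought among the 8224 genes that averaged 10 CPM or more, by Pearson's r of log CPM. The 12 libraries share 4 group means, so a high r largely reflects the same order of the groups. Taf15 was closest to Esf1 (0.992) and to Gas5 (0.990), Fmr1 to Eif3g (0.988), Tardbp to Nek9 (0.986), G3bp1 to Srsf3 (0.981) and Matr3 to Zranb2 (0.981). Tia1 was closest to Sqle (0.978), Atxn2 to Daam1 (0.967), Ewsr1 to Polr1c (0.949) and Stau2 to Hnrnph3 (0.919), the lowest of the 9.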

How the data were processed

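Polyadenylated RNA of 12 libraries was sequenced. According to the submitters' processing notes and the study's methods, the authors trimmed reads with Trimmomatic 0.38.0, aligned them to mm10 with STAR, counted them per Entrez gene with featureCounts 2.0.1 and tested them with DESeq2 2.11.40.7. The strand setting and the treatment of reads that match several genes are not given in the sources used here. The deposited files hold whole-number read counts per gene for each library, not normalized, and no row without a gene entered. Libraries were grouped by their labels, and no 2 libraries were identical (0 pairs).

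Of 27179 genes, 25275 matched a symbol in RefSeq. Genes passing edgeR's filterByExpr (14185, all 9 members among them) were scaled by TMM and fitted with edgeR 4.0.16 (R 4.3.3, limma 3.58.1) as 4 group means over all 12 libraries. The quasi-likelihood test was applied to 5 comparisons, with Benjamini-Hochberg adjustment over all genes and a call at an adjusted p under 0.05. Each SE of a log2 fold change was derived as its absolute value divided by the square root of the F statistic of that test. Depth, 4247610 to 22166347 counts with a median of 7841751, limits the precision of each level. Paralog ratios were compared by exact two-sided permutation tests after adding 1 to each count. The members and the gene lists were chosen with earlier results of these data known. Text values cover every member and paralog, and in each context list up to 3 genes per direction with the largest called change and a mean of at least 1 CPM, some of which are not reported here. Alternatives were DESeq2 1.42.0, its size factors, total counts, other filters (none, or at least 10 counts in every library), the compared groups alone, a replicate block, stricter thresholds and leaving out each library.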

Additional observations from a re-analysis of the deposited data

Results flagged for a closer look

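The estimated MG132 responses of Tardbp had opposite signs in somas and neurites. Neither response was called in the main edgeR fit, and in somas the Ctrl and MG132 ranges overlapped. Within each replicate number the MG132 library stood above the Ctrl library in somas, by 0.28, 0.19 and 0.15 on the log2 scale, and below it in neurites, by values of -0.50, -0.11 and -0.53. The difference between the responses was -0.58 (SE 0.22), with an unadjusted p of 0.0188 and an adjusted p of 0.592 in edgeR's interaction test, so it was not called. The labels do not say that a replicate number marks a shared culture, and the file of the third MG132 neurites library carries another date than the other files of its number, so these within-number differences are a description.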

How the results depend on the processing

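MG132 raised Taf15, G3bp1 and Fmr1 in both compartments under every scaling, filter, tool and left-out library tried. With total counts 3 members rose in neurites, and 0 were higher and 2 lower between compartments in Ctrl and in MG132. DESeq2, a minimum of 10 counts and the replicate block each gave 1 member lower with MG132 in neurites (Tardbp), and leaving out each library in turn gave 0 to 1 there and 0 to 1 lower in MG132 neurites against somas. Requiring an adjusted p under 0.01 left 1 member higher and 0 lower in neurites in MG132, and 0 lower in Ctrl. Adding a 1.7-fold minimum left 3 risen in neurites, 1 higher and 0 lower in MG132 and 0 lower in Ctrl, and a log2 minimum of 1.7 left 0 in each comparison.

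Signs changed in 58 cases, 0 of them with an adjusted p under 0.05, and 2 were of called values (Tardbp and Matr3 between compartments in MG132). With total counts, neurites against somas in Ctrl became -0.38 for Ewsr1, -0.46 for Matr3, -0.47 for G3bp1, -0.39 for Fmr1, -0.38 for Fxr2 and -0.52 for Stau1. In MG132 it became -0.13 for Tardbp, -0.46 for Ewsr1, -0.14 for Matr3, -0.49 for G3bp1, -0.40 for Fmr1, -0.38 for Stau2, -0.63 for Tial1, -0.26 for Fxr2 and -0.24 for Stau1. The MG132 response of Stau2 in neurites became -0.091, and the interaction became -0.079 for Ewsr1, -0.062 for Taf15, -0.076 for Tia1, -0.021 for G3bp1, -0.019 for Fmr1, -0.12 for G3bp2 and -0.019 for Fxr1. With at least 10 counts the Ewsr1 interaction was -0.0058 and Stau2 in neurites -0.0014. Without a filter Tia1 in neurites was 0.13 and the Atxn2l interaction 0.039, and with the compared groups alone Tia1 in neurites was 0.016. Leaving out each library gave interactions from -0.18 to 0.26 (Ewsr1), -0.13 to 0.21 (Tia1), -0.17 to 0.16 (Atxn2l) and -0.063 to 0.19 (G3bp2). It gave MG132 responses from -0.12 to 0.12 (Tia1, somas), -0.16 to 0.19 (Tia1, neurites) and -0.0023 to 0.31 (Stau2, neurites), and compartment ratios from -0.027 to 0.29 (G3bp1, Ctrl), -0.19 to 0.049 (G3bp2, MG132) and -0.17 to 0.27 (Stau1, Ctrl). The causes were not tested.

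The labels do not say that a replicate number marks a shared culture. Same-numbered libraries deviated together from their group means, with a mean correlation of 0.199 (0.0972 to 0.248, 18 pairs). The other 36 pairs had a mean of -0.0997. Deviations from a group mean sum to 0, so this negative value largely follows from the positive one and is no separate contrast. By the same deviations 12 of 12 libraries were closest to their own number, a hint from the data and not from the design. The file of 1 library, the third of MG132 neurites, carries another date than the others of its number. With the replicate block the calls over all genes were 5169 in place of 3897 (MG132, somas), 5078 in place of 3823 (MG132, neurites), 3257 in place of 2111 (neurites, Ctrl), 3802 in place of 2516 (neurites, MG132) and 90 in place of 0 (interaction). Ewsr1 was then higher in somas (0.50, adjusted p = 0.0484), which made 5 members, and Tardbp lower in neurites (-0.37, adjusted p = 0.0477). Stau1 was higher in somas (0.53, adjusted p = 0.0125) and in MG132 neurites against somas (0.56, adjusted p = 0.0123), as was Fxr2 in the latter (0.50, adjusted p = 0.0288). The Ewsr1 interaction was -0.026 and Tia1 in neurites was 0.0027. Of the 70 context genes tested 11 fell in neurites with MG132, and 9 in Ctrl and 16 in MG132 were lower in neurites than in somas. Over all genes the block gave 18.1%, 9.28% and 11.7% for these.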
